A study of Homo sapiens with 8 samples.

Results

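Gene fitness of Notch inhibitor-resistant cells during 14 days of growth in γ-secretase inhibitor (GSI) was read from a pooled knockout screen, by comparing the guides left in 3 GSI cultures with those in 2 aliquots of the starting pool. These 5 libraries of the 8 in the series were taken with every guide in the table, 119461 in all, of which 116852 had enough counts to be tested. The 3 libraries of vehicle (DMSO) cultures are given only beside them. MB157R is a triple-negative breast cancer (TNBC) cell line, derived from MB157 by long culture in GSI, and it carried Cas9 in every library, T0 included. The cells were transduced with the human GeCKOv2 sgRNA library, parts A and B, selected with puromycin and combined to 1 pool. The 2 T0 libraries are aliquots of that pool, and the GSI cultures are splits of it that were grown with 10 µM LY3039478 until day 14. All libraries therefore share 1 transduction and 1 resistant line, and the p-values measure the spread between aliquots and cultures of 1 pool. MB157 carries a deletion within NOTCH1, so that its receptor lacks the extracellular part and needs no ligand. Guide counts do not measure expression, so markers of the cell type could not be checked in them.

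In such a screen each cell carries 1 guide that directs Cas9 to cut 1 gene. A guide whose target is needed for division or survival becomes rarer among the cells that remain, a guide against a gene that restrains growth becomes more common, and guides without a target follow the culture as a whole. The machinery for protein synthesis, transcription, splicing, DNA replication and protein breakdown is needed by nearly every dividing human cell. γ-Secretase is the membrane protease that releases the active intracellular part of Notch receptors, and GSI blocks that cut. Guide sequences were not analysed here, so genes are given by symbol.

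Totals of the 5 libraries ran from 12936376 to 18212884 counts, with a median of 66 to 112 counts per guide. Both T0 aliquots missed more guides than the GSI cultures. Of the tested guides, 3.84% and 10.1% had no count in T0 replicates 1 and 2, against 0.242% to 1.36% in the GSI libraries, and 23% of the tested guides had under 10 counts in at least 1 of the T0 aliquots. Across guides, the normalized counts of the T0 aliquots correlated with a Spearman rho of 0.382, those of the GSI cultures with each other with 0.670 to 0.733. Each T0 aliquot correlated more with every GSI culture than with the other aliquot. These values were 0.470 to 0.566 for T0 replicate 1 and 0.420 to 0.462 for T0 replicate 2. GSI replicate 1 stood apart in 2 ways. A single guide against VPS33B, a vesicle trafficking protein, made up 38.8% of its counts and its correlation with DMSO replicate 1 (rho 0.818) was higher than with the other GSI cultures (0.733 and 0.692). Guides against VPS33B and HNF4A kept a near constant ratio in all 8 libraries, between 6.33 and 7.36, while the share of the first ranged from 0.0938% to 38.8%. Counts of list members without GSI replicate 1 are given where they move by over 1.5 times.

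No guide passed an adjusted p under 0.05 (edgeR quasi-likelihood, 0% of 116852), and no gene passed robust rank aggregation of its guides on either side (0% of 18570). At an unadjusted p under 0.05, 1060 genes (5.71%) were found on the low side and 999 (5.38%) on the high side. DESeq2 called 7898 guides, and rank aggregation of its p-values called SNRNP25 and SART3 on the low side. On the summed guide counts of each gene, where libraries are the replicates, edgeR called 19 genes lower (0.102%) and 1 higher (0.00539%), which was AMELY. Statements on groups below are therefore counts and medians beside those of all genes, and no member is said to have passed unless the test is named. Gene values are log2 fold changes, as medians with the SD over guides, and mean normalized counts per guide in each library. In 3573 genes (19.2%) that mean was lower in all 3 GSI libraries than in both T0 libraries, and in 2123 (11.4%) it was higher. Most genes named below were picked for a low p in these same libraries. Separate groups among them, and guides that share a sign, are therefore partly set by that choice. Guides of 1 gene are not replicates of the culture, and the share of all genes with every guide negative was not counted.

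Guides without a target spread much less than guides against genes. The 999 tested non-targeting controls had a median log2 fold change of 0.19, with 5% of them under -0.73, and an SD of 0.72. The 109329 guides against genes had a median of -0.0063 and an SD of 1.57, and their lowest 5% lay under -1.76. Over all tested guides 13.6% were lower in every GSI library than in both T0 libraries. This held for 13.8% of the guides against genes and for 5.61% of the controls. In the other direction, 15.7% of the gene guides and 18.1% of the controls were higher in every GSI library than in both T0 libraries. The sets were not matched for counts. At least 50 normalized counts in both T0 libraries were seen for 799 of the 999 controls and 53565 of the 109329 gene guides. The part of counts in the spread was not tested. Scaling the libraries on the controls alone moved the median of all genes by -0.24, and library totals moved it by -0.16, so values are read below relative to all genes.

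**Figure D1:**
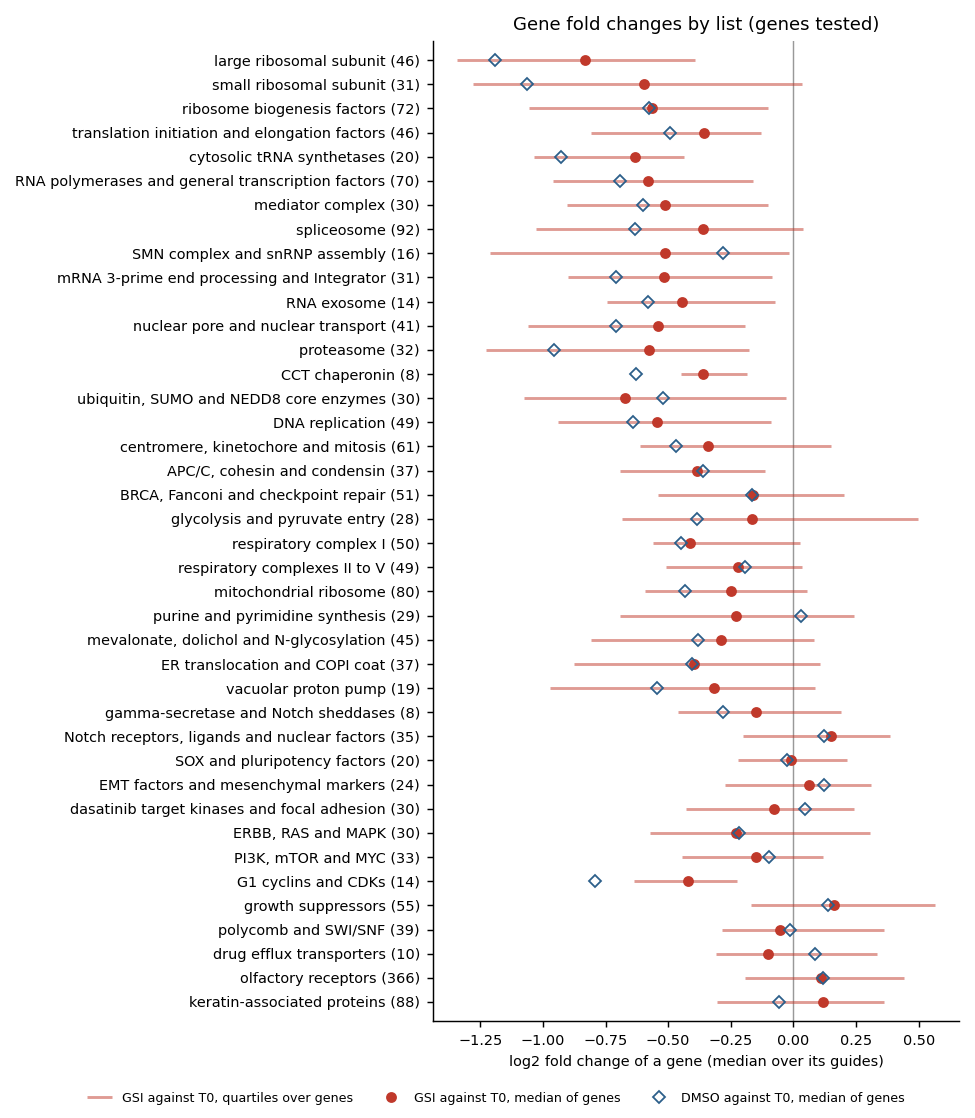
Median log2 fold change of the genes of each list (circles) with the lower and upper quartile over genes (lines) for GSI against T0, and the median for DMSO against T0 (diamonds), with the number of genes tested in brackets. The large ribosomal subunit sits furthest to the left at -0.83, followed by the ubiquitin, SUMO and NEDD8 enzymes at -0.67, and the reference lists sit at 0.11 and 0.12.

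Protein synthesis had the lowest median of the 11 roles. Its 5 lists hold 215 tested genes, with a median log2 fold change of -0.60 against -0.00031 over all genes, and 179 of them were negative. Of these genes 77 (35.8%) reached an unadjusted p under 0.05 on the low side and 4 on the high side, and 61 (28.4%) had a log2 fold change under -1, against 3.32% of all genes, of which 3.55% lay over 1. The large ribosomal subunit, which forms the peptide bond, had the lowest median of the 40 lists: -0.83 over 46 of 47 listed genes. Of these, 23 reached an unadjusted p under 0.05 and 30 were lower in all GSI libraries. The level of its 254 guides, relative to all gene guides and to the T0 mean, was 0.05 and -0.05 in the T0 libraries and -0.84, -1.16 and -0.95 in GSI replicates 1 to 3. The groups did not overlap. In library part A the median over guides was -0.70 and in part B, whose guides are different ones, it was -0.97.

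RPL37A, a protein of the large subunit, had a mean normalized count per guide of 107 and 92.9 at T0 and of 33.5, 41.2 and 21.6 in GSI. All GSI libraries lay below both T0 libraries. Its log2 fold change was -2.55 ± 3.77 (SD over 6 guides), with 4 guides lower in every GSI library. RPL17 stood at 240 and 233 at T0 and at 149, 108 and 87.8 in GSI, again with no overlap. Neither gene passed after adjustment (rank aggregation on edgeR p-values, adjusted p 0.17 and 0.36).

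The small ribosomal subunit, which reads the mRNA, had a median of -0.60 over 31 genes, 13 of them at an unadjusted p under 0.05 and 15 lower in all GSI libraries. RPS21 passed on gene sums with a log2 fold change of -1.50 (edgeR, adjusted p 0.048). Its counts were 165 and 148 at T0 and 56.5, 57.9 and 49.2 in GSI. RPS19 had 121 and 87.6 at T0 and 32.8, 33.3 and 37.5 in GSI, with all 6 guides negative. RPS12 overlapped between the groups, with 153 and 61.2 against 107, 61.8 and 68.7. The factors that build ribosomes in the nucleolus had a median of -0.56 over 72 genes, of which 25 reached an unadjusted p under 0.05. EBNA1BP2, needed to process the large-subunit rRNA, had 106 and 148 counts at T0 and 59.4, 37.2 and 36.0 in GSI, and 5 of its 6 guides were lower in every GSI library. NOP14, a factor of the small-subunit precursor, passed no test after adjustment. Its log2 fold change was -2.54 ± 1.47 (SD over guides), with 6 of 6 guides negative.

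All but 1 of the 20 cytosolic tRNA synthetases, the enzymes that load amino acids on tRNA, had a negative fold change (median -0.63), and 14 were lower in all GSI libraries, while 5 reached an unadjusted p under 0.05. DARS, which loads aspartate, had 213 and 254 counts at T0 and 120, 92.8 and 109 in GSI. Its 6 guides were all negative and 5 of them were lower in every GSI library (log2 fold change -1.57 ± 1.25, SD over guides). YARS, for tyrosine, stood at 98.4 and 99.4 against 35.4, 22.2 and 17.0. Translation initiation and elongation factors had a median of -0.36 over 46 genes, with 11 at an unadjusted p under 0.05 and none on the high side. EIF6, an anti-association factor of the large subunit, had 86.6 and 96.6 counts at T0 and 48.0, 34.2 and 18.9 in GSI. EIF4A3, the core helicase of the exon junction complex, had 163 and 157 against 67.3, 55.1 and 76.5.

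**Figure D2:**
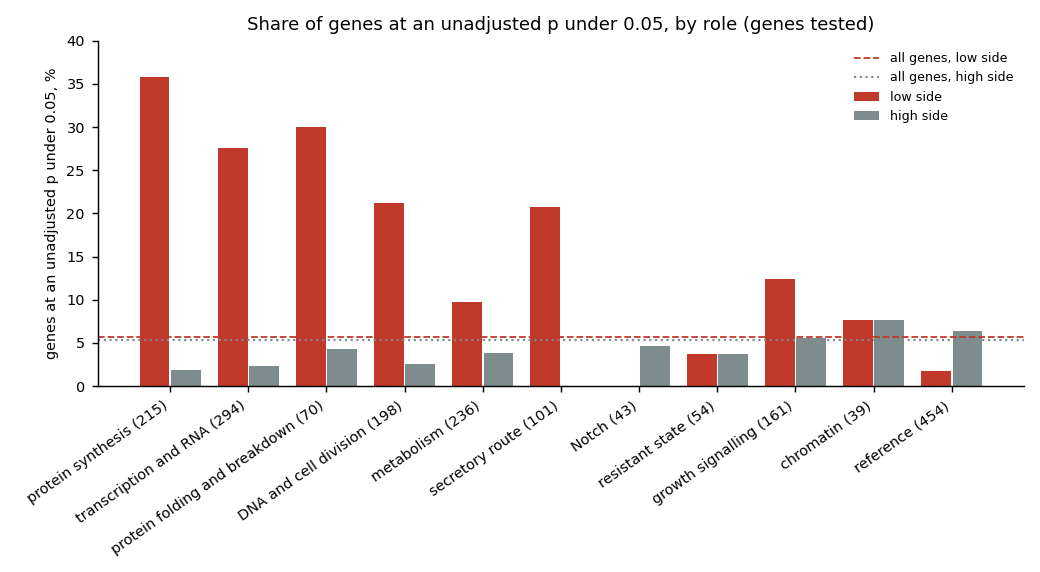
Percentage of the genes of each role (tested genes in brackets) at an unadjusted p under 0.05 on the low side (dark red bars) and on the high side (grey bars), with the same for all genes as dashed and dotted lines at 5.71% and 5.38%. Protein synthesis reached 35.8% on the low side and the reference lists 1.76%.

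Transcription and RNA processing had 294 tested genes at a median of -0.50. Of these, 81 (27.6%) reached an unadjusted p under 0.05 on the low side and 7 on the high side. RNA polymerases and general transcription factors had a median of -0.58 over 70 genes, 19 of them at that p. GTF2H3, a subunit of the initiation and repair factor TFIIH, had 146 and 131 counts at T0 and 54.0, 81.0 and 53.5 in GSI. ERCC3, the TFIIH translocase, had 191 and 102 against 80.6, 62.7 and 49.97, with 4 of 6 guides lower in every GSI library. The mediator, which links activators to RNA polymerase II, had a median of -0.51 over 30 genes with 7 at an unadjusted p under 0.05. Its subunit MED28 had 6 of 6 guides negative, at 187 and 206 counts against 77.6, 99.0 and 65.2. NELFB, a subunit of the factor that pauses RNA polymerase II, is in none of the lists and was picked after its values were seen: it passed on gene sums (log2 fold change -2.24, edgeR, adjusted p 0.033), with 79.5 and 117 counts against 19.5, 25.2 and 16.7.

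In the spliceosome 26 of 92 genes reached an unadjusted p under 0.05, against 1 on the high side, with a median of -0.36. The lowest p belonged to SNRNP25, a protein of the U11/U12 particle that recognises minor introns (GRCh38 chr16:53828-57669). It had 200 and 212 counts at T0 and 69.9, 60.1 and 60.4 in GSI, so that the groups were far apart. It passed on gene sums with a log2 fold change of -1.68 ± 0.25 (SE, edgeR, adjusted p 0.015), but not in rank aggregation (adjusted p 0.086). A single guide of its 6 went the other way, from 55.4 and 25.7 to 87.9, 102 and 75.0, while another, at 418 and 287 counts at T0, was left with 90.4, 27.4 and 21.4. SART3, which recycles the U4/U6 particle, had 119 and 87.2 counts against 23.6, 13.2 and 29.8, and PRPF4, of the same particle, 112 and 157 against 40.2, 55.5 and 42.5. SF3B4, of the branch site factor SF3b, had 158 and 156 counts against 39.2, 73.8 and 33.9.

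The SMN complex, which loads the Sm ring onto spliceosomal RNA, had 5 of 16 genes at an unadjusted p under 0.05. GEMIN5, its snRNA-binding subunit (chr5:154887411-154938211), had 99.4 and 154 counts at T0 and 46.0, 45.6 and 43.3 in GSI. In 4 of its 6 guides every GSI library was lower, and the adjusted p was 0.087 by rank aggregation and 0.083 on gene sums (edgeR). DDX20 had 128 and 107 counts against 57.5, 15.8 and 36.4. For mRNA 3′ end processing and the Integrator 9 of 31 genes reached that p, none on the high side. SYMPK, the scaffold of the cleavage complex (chr19:45815410-45863194), had 213 and 233 counts against 99.2, 102 and 146, with only 4 tested guides. Of these, 1 went from 299 and 164 to 5.02, 19.3 and 5.84, and another stood at 200 and 350 against 305, 300 and 460. In the RNA exosome, the 3′ to 5′ RNA nuclease, 12 of 14 genes were negative and 3 reached an unadjusted p under 0.05, or 5 without GSI replicate 1.

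Nuclear pore and transport genes had a median of -0.54, and 12 of 41 reached an unadjusted p under 0.05. RCC1, which charges RAN with GTP on chromatin, had 191 and 155 counts at T0 and 63.8, 70.7 and 65.8 in GSI. NUP93, of the inner ring of the pore, had 91.6 and 83.7 against 40.2, 18.2 and 27.3, and all 5 guides were negative with an SD of only 0.42. Within transcription and RNA processing, the GSI levels of all 7 lists lay below both T0 levels in every library. This was not particular to that role. It also held for glycolysis and pyruvate entry (-0.05, -0.13 and -0.20 in GSI) and for SOX and pluripotency factors (-0.20, -0.14 and -0.12). The list of γ-secretase and the enzymes that cut Notch before it did so as well (-0.14, -0.24 and -0.42).

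**Figure D3:**
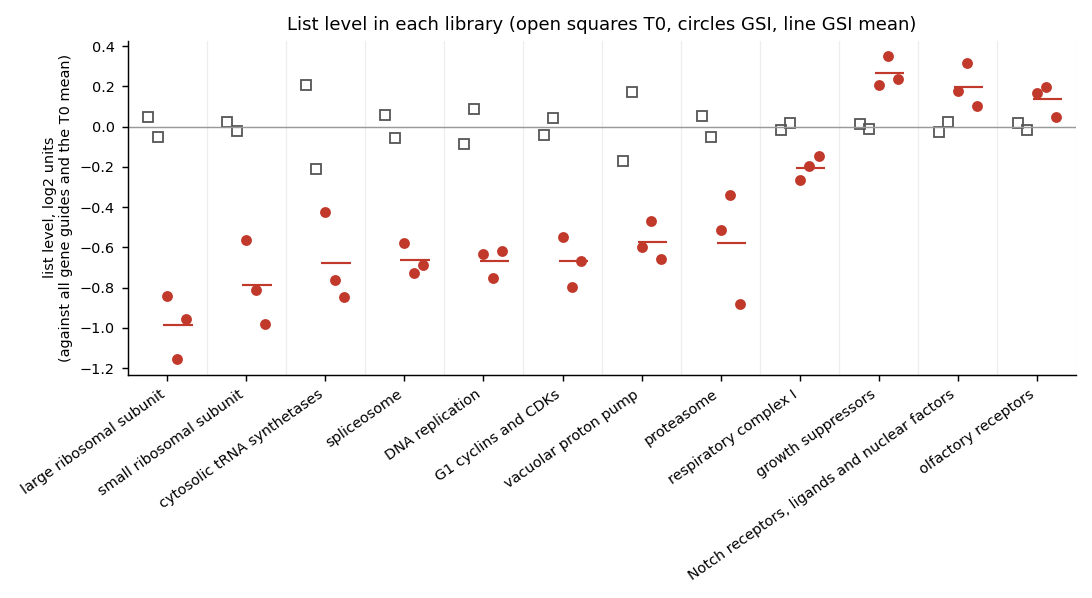
Level of 12 lists in each T0 library (open squares) and each GSI library (circles), in log2 units relative to the guides of all genes and to the mean of the T0 libraries, with a line at the GSI mean. The large ribosomal subunit lay between -1.16 and -0.84 in GSI. Growth suppressors lay between 0.21 and 0.35, and olfactory receptors, a reference list, between 0.05 and 0.19.

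In protein folding and breakdown 21 of 70 genes (30%) reached an unadjusted p under 0.05, with a median of -0.54. The proteasome accounted for 11 of 32 (median -0.58, 17 lower in all GSI libraries). PSMB7, a catalytic subunit of its core, had 214 and 243 counts at T0 and 89.3, 101 and 34.7 in GSI, with 6 of 6 guides negative. PSMB3 had 102 and 48.2 against 27.8, 22.6 and 22.9, whereas PSMA7 overlapped, at 138 and 92.7 against 79.1, 110 and 57.4. Its level varied between cultures, at -0.52, -0.34 and -0.88 in GSI replicates 1 to 3. The core enzymes of ubiquitin, SUMO and NEDD8 transfer had a median of -0.67 over 30 genes, with 9 at that p. UBA1, the main ubiquitin-activating enzyme, had 99.6 and 148 counts against 46.4, 36.5 and 43.3. The CCT chaperonin, which folds actin and tubulin, had a median of -0.36, but only CCT4 of its 8 genes reached an unadjusted p under 0.05, and 2 did so without GSI replicate 1. HSPE1, the mitochondrial co-chaperonin, is in no list and passed on gene sums (log2 fold change -1.59, edgeR, adjusted p 0.033), at 169 and 207 counts against 55.9, 51.8 and 76.9.

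DNA replication genes had a median of -0.54 over 49 genes, with 18 at an unadjusted p under 0.05 and 1 on the high side. The GINS complex is part of the replicative helicase. GINS1 had 51.1 and 78.4 counts at T0 and 13.0, 17.0 and 9.90 in GSI, with all 6 guides negative. GINS3 had 83.3 and 176 against 29.3, 28.3 and 28.7, and passed on gene sums (log2 fold change -2.15, edgeR, adjusted p 0.033). RPA3, of the single-strand binding protein, had 166 and 137 against 79.6, 56.0 and 53.5, and MCM2, of the helicase ring, 179 and 213 against 120, 107 and 81.3. None of these 4 overlapped between the groups, but they were picked for the lowest p in the list. In the whole list 25 of 49 genes (51.0%) were lower in all GSI libraries, against 19.2% of all genes.

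In the centromere, kinetochore and mitosis list 10 of 61 genes reached an unadjusted p under 0.05, and 19 did so without GSI replicate 1. SPC24 of the NDC80 complex, which holds microtubules at the kinetochore, passed on gene sums (log2 fold change -1.96, edgeR, adjusted p 0.017), at 141 and 148 counts against 33.5, 41.5 and 34.9. CENPW, a histone-fold protein of the inner kinetochore, passed as well (-2.00002, edgeR, adjusted p 0.034), at 118 and 159 counts against 39.2, 28.9 and 34.8. KIF4A, a chromosome-bound kinesin in no list, also passed (-1.68, edgeR, adjusted p 0.033). PLK4, the kinase of centriole duplication, had a low unadjusted p but a median log2 fold change of 0.32, and its groups overlapped, with 212 and 149 counts against 141, 153 and 123. In the APC/C, cohesin and condensin list 31 of 37 genes were negative and 7 reached an unadjusted p under 0.05. ANAPC2, the cullin of the APC/C, had 128 and 117 counts against 37.2, 44.7 and 49.5. In ANAPC4 the mean and the median over guides differed: its counts were 118 and 201 at T0 and 85.4, 87.6 and 344 in GSI, although its median log2 fold change was -1.81.

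The list for BRCA, Fanconi and checkpoint repair had a median of -0.16. Of its 51 genes, 7 (13.7%) reached an unadjusted p under 0.05, against 5.71% of all genes. The list level was -0.28, -0.16 and -0.33 in GSI against -0.04 and 0.04 at T0. Relative to all genes, the list median changed sign in 1 of the 14 alternatives, to 0.13. Its lowest members stood out. BARD1, the partner of BRCA1 (chr2:214725646-214809683), had 159 and 98.5 counts at T0 and 34.5, 25.9 and 13.1 in GSI, and passed on gene sums (log2 fold change -2.38 ± 0.41, SE, edgeR, adjusted p 0.033). One BARD1 guide went from 154 and 121 to 3.77, 0 and 0. XRCC6 (Ku70), which binds broken DNA ends, passed with the lowest fold change of the 19 genes (-2.81, edgeR, adjusted p 0.015), at 104 and 70.9 counts against 11.3, 9.75 and 15.9. All 6 XRCC6 guides were negative.

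Metabolic genes gave lower shares: 23 of 236 (9.75%) reached an unadjusted p under 0.05, with a median of -0.25. The respiratory chain shows the range. Complex I had a median of -0.41 and 35 of 50 genes negative, yet 2 reached that p on the low side (1 without GSI replicate 1) and 4 on the high side. In complexes II to V 7 of 49 did so and none on the high side, and 3 of the 4 members with the lowest p were subunits of ATP synthase. ATP5B, a catalytic subunit, had 176 and 199 counts at T0 and 88.1, 97.6 and 69.3 in GSI, and ATP5A1, its partner, 218 and 205 against 115, 92.2 and 110. For the mitochondrial ribosome 59 of 80 genes were negative and 5 reached the p, close to the share of all genes. In glycolysis 4 of 28 did so. GAPDH, the dehydrogenase of its middle step, had 167 and 130 counts against 48.5, 39.995 and 32.9, and passed on gene sums (log2 fold change -1.86, edgeR, adjusted p 0.031). ENO1 had 63.3 and 186 against 37.9, 50.1 and 26.3. PGD, which makes NADPH in the pentose phosphate route and is in no list, had 153 and 121 against 67.4, 56.7 and 73.2. In purine and pyrimidine synthesis 5 of 29 genes reached the p, and the level of the list, at 0.12, -0.27 and -0.02 in the GSI libraries, overlapped that of T0.

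Along the secretory route, 21 of 101 genes (20.8%) reached an unadjusted p under 0.05 on the low side and none on the high side. ATP6V0D1, a subunit of the membrane part of the vacuolar proton pump that acidifies lysosomes (chr16:67438014-67481181), had the lowest p of all genes. Its counts were 107 and 174 at T0 and 21.5, 29.3 and 26.6 in GSI, and it passed on gene sums (log2 fold change -2.42 ± 0.34, SE, edgeR, adjusted p 0.015). In 4 of its 6 guides every GSI library was lower, and 1 of them went from 130 and 303 to 7.53, 0 and 0. The guide that went up had 1.56 and 0 counts at T0. ATP6V0C, the ring subunit of the same pump, had 79.4 and 130 counts against 19.8, 31.996 and 24.5, with all 5 guides negative, and in all 5 of the 19 pump genes reached the p. SYS1, a Golgi membrane protein for vesicle targeting, passed on gene sums (-1.72, edgeR, adjusted p 0.015), at 250 and 255 counts against 67.8, 80.4 and 78.8. SEC61A1, the channel of the ER translocon, had 119 and 142 against 47.5, 28.6 and 34.5. Of the ER translocation and COPI coat genes 6 of 37 reached the p, and 11 without GSI replicate 1. Mevalonate, dolichol and N-glycosylation genes had a median of -0.29 with 10 of 45 at the p.

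**Figure D4:**
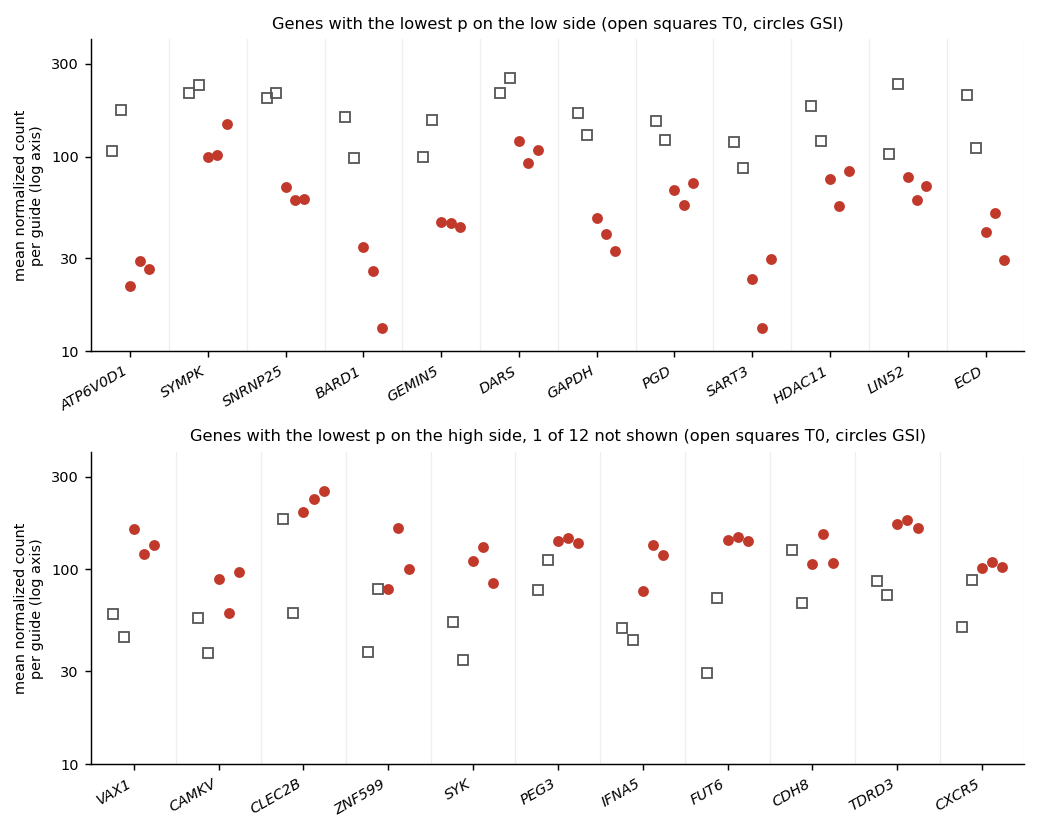
Mean normalized count per guide (log axis) in each T0 library (open squares) and GSI library (circles) for the 12 genes of lowest p on either side. ATP6V0D1 fell from 107 and 174 to between 21.5 and 29.3, and all 12 low-side genes have separate groups, whereas CDH8 on the high side overlaps. The genes were picked for low p in these same libraries, so separate groups are partly set by that choice. Of all genes, 19.2% were lower in all 3 GSI libraries than in both T0 libraries. A single high-side gene is not shown.

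The direct target of the drug did not stand out. Of the 8 genes for γ-secretase and the sheddases that cut Notch before it, none reached an unadjusted p under 0.05 on either side, with a median of -0.15, although 1 did so on the low side without GSI replicate 1. PSEN2, a catalytic subunit, had 78.2 and 58.1 counts at T0 and 121, 106 and 91.7 in GSI (log2 fold change 0.29 ± 1.53, SD over 6 guides). NCSTN, the substrate receptor, overlapped at 91.2 and 109 against 117, 70.2 and 107. APH1A and APH1B, alternative scaffold subunits, had log2 fold changes of 0.16 and -0.26, and PSENEN, needed for maturation, had 0.71. The guide SDs of these 5 genes lay between 0.80 and 1.53.

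Of the 35 Notch receptors, ligands and nuclear factors, none reached that p on the low side and 2, HEYL and FBXW7, did so on the high side. The median was 0.15, which turned to -0.10 with control-guide scaling, where that of all genes was -0.24, and relative to all genes it was -0.0059 with at least 10 counts in each T0 library. NOTCH1 had 93.1 and 198 counts at T0 and 128, 131 and 121 in GSI, between the T0 values, and which of its guides lie in the deleted stretch was not tested. RBPJ, the DNA-binding partner of cleaved Notch, had 206 and 79.2 against 92.5, 146 and 126, also between them. SOX2, a pluripotency factor, had only 4 tested guides and low counts, 13.1 and 93.3 at T0 and 45.5, 34.3 and 56.7 in GSI, at 0.21 ± 0.99 on the log2 scale (SD over guides). Its T0 aliquots differed more than its groups did. Of 20 SOX and pluripotency factors only SOX4 reached an unadjusted p under 0.05 on the low side (2 without GSI replicate 1), at 50.3 and 47.8 counts against 30.5, 11.6 and 40.1. Among 24 factors and markers of epithelial-mesenchymal transition (EMT) only CDH1 did, at 169 and 95.2 against 72.8, 65.5 and 80.0, and without GSI replicate 1 none did. None of the 10 drug efflux transporters did, and 1 reached it on the high side.

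Growth signalling was mixed, with 20 of 161 genes (12.4%) at an unadjusted p under 0.05 on the low side and 9 on the high side. Of the 14 G1 cyclins and CDKs, which start the cell cycle, 13 were negative and the median was -0.42. Their level was -0.55, -0.79 and -0.67 in GSI against -0.04 and 0.04 at T0. E2F3, a transcription factor for S phase genes, passed on gene sums (log2 fold change -2.002, edgeR, adjusted p 0.045), at 139 and 124 counts against 39.4, 33.5 and 24.5. CCND1, cyclin D1, had 196 and 205 counts against 100, 113 and 89.6, with 4 of 6 guides lower in every GSI library. TFDP1, the partner of E2F factors, had 140 and 86.2 against 81.4, 67.9 and 52.9.

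In ERBB, RAS and MAPK signalling 5 of 30 genes reached the p, none on the high side. PTPN11 (SHP2), a phosphatase that carries receptor signals to RAS, had 178 and 98.4 counts at T0 and 70.0, 43.6 and 45.6 in GSI, with 5 of 5 guides negative. NRAS had 198 and 112 against 81.0, 69.3 and 73.5, ERBB2 107 and 138 against 60.3, 57.4 and 55.5, and JUN 126 and 157 against 58.2, 74.5 and 85.7. All 4, picked for the lowest p in the list, had separate groups. None passed after adjustment (rank aggregation on edgeR p-values, adjusted p 0.36 to 0.80). In the whole list 8 of 30 genes (26.7%) were lower in all GSI libraries, against 19.2% of all genes. HRAS had a log2 fold change of -0.17. In the PI3K, mTOR and MYC list 7 of 33 reached the p, or 4 without GSI replicate 1. MYC had 101 and 86.0 counts against 62.8, 19.1 and 27.1, MTOR 126 and 153 against 63.4, 47.0 and 52.1, and RPTOR, its partner in complex 1, 163 and 254 against 141, 96.5 and 98.0. RUNX1, a transcription factor of the breast epithelium in none of the lists, passed on gene sums (-1.46, edgeR, adjusted p 0.048), at 186 and 170 counts against 78.9, 59.1 and 54.2.

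Kinases that dasatinib binds and focal adhesion genes had a median of -0.08 over 30 genes, with 3 at the p on each side. The 3 on the low side were the adapters CRK and CRKL and the integrin linker TLN1, and SRC itself had a log2 fold change of 0.07. CRK had 209 and 149 counts at T0 and 102, 90.1 and 124 in GSI, with 4 of 5 guides lower in every GSI library. TLN1 had 102 and 124 against 62.3, 49.2 and 36.0. PTK2 (FAK) had 184 and 175 against 140, 118 and 113, at an unadjusted exact p of 0.058.

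Growth suppressors had a median of 0.16, with 21 of 55 genes negative, 6 at an unadjusted p under 0.05 on the high side and 2 on the low side. Their level was above both T0 libraries in every GSI library, at 0.21, 0.35 and 0.24. The same held for olfactory receptors (0.17, 0.19 and 0.05) and keratin-associated proteins (0.15, 0.07 and 0.08). It also held for the Notch receptor list (0.18, 0.32 and 0.10) and drug efflux transporters (0.23, 0.07 and 0.11), so it was not particular to growth suppressors. Non-targeting controls had a median guide log2 fold change of 0.19. Relative to the all-gene median the list stayed above 0 in all 14 alternatives, but its own median was -0.07 with control-guide scaling. FBXW7, a ubiquitin ligase subunit that marks cyclin E, MYC and Notch for breakdown, had 92.8 and 41.0 counts at T0 and 113, 105 and 119 in GSI. TAOK1, a kinase upstream of Hippo signalling, overlapped, at 266 and 118 against 264, 436 and 325, as did CDKN1A (p21). ZNRF3, which removes WNT receptors, went against its list, with 6 of 6 guides negative and 152 and 87.9 counts against 58.0, 50.1 and 53.5. RB1 had a log2 fold change of -0.13. In polycomb and SWI/SNF complexes 3 of 39 genes reached the p on each side, and without GSI replicate 1 only 1 did on the low side. RBBP4, a histone chaperone shared by polycomb and other complexes, had 185 and 106 counts against 75.5, 81.1 and 84.2.

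Olfactory receptors and keratin-associated proteins, taken as genes without a role in these cells, had medians of 0.11 over 366 genes and 0.12 over 88, which turned to -0.13 and -0.13 with control-guide scaling. Of the receptors 7 (1.91%) reached an unadjusted p under 0.05 on the low side and 24 on the high side. Without GSI replicate 1 the low side held 11, and with at least 10 counts in each T0 library 2 of 324. A low p was not absent among them: OR4F17 had 467 and 490 counts at T0 and 276, 344 and 242 in GSI. Of the keratin-associated proteins 1 reached the p on the low side and 5 on the high side.

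Of the 12 genes of lowest p on the high side, none is in a list. VAX1, a homeobox factor of the developing eye, had 58.9 and 45.1 counts at T0 and 162, 119 and 134 in GSI. Its log2 fold change was 2.44 ± 1.66 (SD over 6 guides), with 5 guides higher in every GSI library and 1 at -0.38. Of these 5 guides, 1 had only 3.12 and 0.88 normalized counts at T0, and another had 14.8 and 2.65. FUT6, a fucosyltransferase, had 29.4 and 71.4 against 142, 146 and 140, and TDRD3, a reader of methylated arginine, 87.3 and 74.3 against 172, 180 and 164. All 6 guides of each were positive. SYK, a kinase of immune receptors, had 53.8 and 34.4 against 111, 130 and 85.0, but 2 of its 6 guides had no count in either T0 aliquot. For CAMKV the log2 fold change was 3.95 ± 3.88 (SD over guides), and 3 of its 6 guides had at most 1.77 normalized counts in both T0 aliquots and between 9.63 and 151 in GSI. Its mean differed less, at 56.5 and 37.3 against 89.3, 59.9 and 97.2. The count filter took the mean over all 8 libraries, so guides nearly absent at T0 could pass it through their day 14 counts. The part of guides missing at T0 in these values was not tested.

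The clearest losses were seen in single guides. A guide was called lost when it had at least 50 normalized counts in both T0 libraries and at most 5 in each GSI library. This was met by 27 guides (0.0231% of those tested), all against genes. Of the guides with 50 counts in both T0 libraries, 53565 were against genes and 799 were controls. The share lost was 0.0504% for gene guides and 0 of 799 for controls, which allows up to 0.375% (3 counts, counting error only), so a lower rate among controls was not detectable. The 27 guides hit 27 different genes, and 17 of these are in the lists. They include ribosomal proteins (RPL10, RPL13A, RPL34 and RPS19), initiation factors (EIF1AX, EIF2S3 and EIF5), replication and repair proteins (GINS3, ORC6, RRM2 and BARD1), and ANAPC10, PMF1, ALG14, UFD1L and HNRNPU. Outside the lists were POP7, a subunit of RNase P, RTCB, the tRNA ligase, RBM25, LSM11, YBX1 and PELO, which act on RNA or ribosomes, and SLC35A3, ARL3, TSACC and APOBEC1. The RPL10 guide had 78.8 and 78.7 counts at T0 and none in any GSI library, and the EIF5 guide went from 166 and 234 to 3.77, 2.22 and 0.97. The EIF5 gene as a whole stood at only -0.28 ± 3.13 on the log2 scale (SD over 5 guides). In 13 of the 27, the guide was also at 5 or less in all 3 DMSO libraries. Only the lost guides of APOBEC1 and BARD1 came from library part A, and the others came from part B. The share of all tested guides that the lists hold was not counted, so no excess in the lists is read from 17 of 27. By list, 3 of 254 guides (1.18%) were lost in the large ribosomal subunit and 0 of 2188 in olfactory receptors. Over all gene guides it was 0.0247%.

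**Figure D5:**
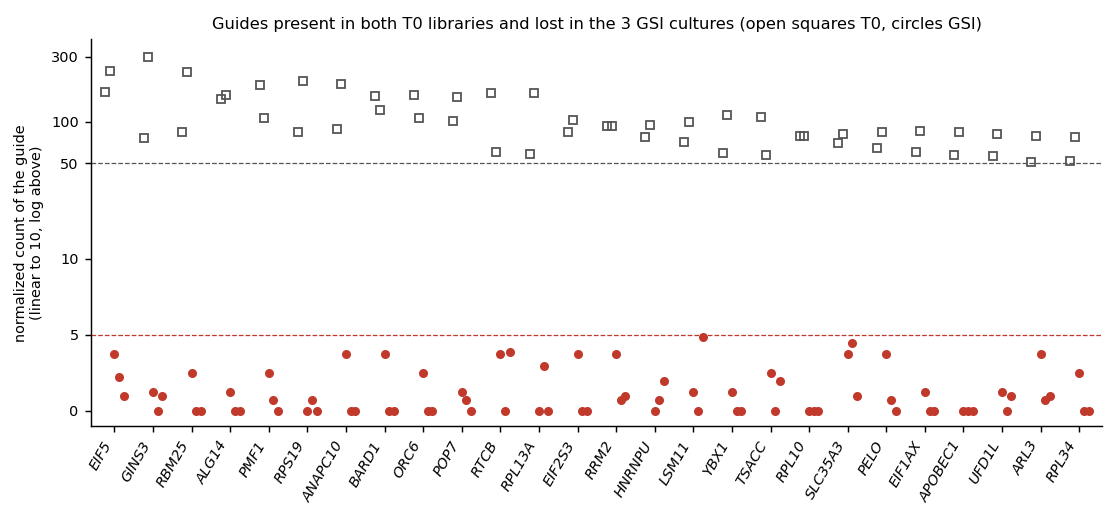
Normalized count of the lost guides, named by target gene and without 1 of the 27, in the T0 libraries (open squares) and the GSI libraries (circles), on an axis that is linear up to 10 and logarithmic above. Dashed lines mark the thresholds of 50 and 5, so the gap between the groups is set by the rule, and the figure shows which genes met it.

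Genes could be placed in GRCh38 for 18376 of 18570. The share at an unadjusted p under 0.05 on the low side was highest for chromosome 22, with 42 of 409 genes (10.3%), followed by chromosome 16, with 66 of 762 (8.66%), and the other chromosomes lay between 3.95% and 6.99%. Chromosome 22 also had the lowest median, -0.11, and chromosome X the highest, 0.15. On chromosome 22 the low genes include RPL3, CENPM, RANGAP1 and XRCC6, which have different roles. CENPM, a kinetochore protein, had 162 and 29.7 counts at T0 and 20.6, 29.6 and 28.4 in GSI, only just below the lower T0 value, and RANGAP1, which turns off RAN at the pore, had 218 and 124 against 68.2, 76.5 and 68.5. Copy number of the line was not analysed here.

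DMSO cultures of the same length share the T0 libraries with the GSI cultures, so the medians below stand side by side without a test of likeness. Against T0, protein synthesis genes had a median of -0.83 in DMSO and -0.60 in GSI, protein folding and breakdown -0.86 and -0.54, transcription and RNA -0.64 and -0.50, DNA and cell division -0.38 and -0.34, and growth signalling -0.0087 and -0.051. For the large ribosomal subunit the DMSO levels were -1.29, -1.30 and -1.36, below all 3 GSI levels, and for the proteasome they were -0.99, -1.06 and -0.97, also below them. Other lists also had DMSO levels below all 3 GSI levels. Among them were ribosome biogenesis factors (-0.82, -0.82 and -0.82 in DMSO), translation factors (-0.80, -0.71 and -0.97), the spliceosome and nuclear pore genes. For G1 cyclins and CDKs the DMSO levels, -0.35, -0.49 and -0.53, lay above all 3 GSI levels. The medians over genes of that list went the other way, at -0.79 in DMSO and -0.42 in GSI. Its direct median, GSI against DMSO, was -0.0059, so no difference between the cultures is read from its levels. The number of lists without overlap was not counted. For DNA replication, -0.85, -0.59 and -0.59 in DMSO, the levels overlapped. Compared directly, GSI against DMSO gave a median of 0.14 for protein synthesis and of 0.21 for protein folding and breakdown, against -0.021 over all genes. No gene passed in that comparison (rank aggregation on edgeR p-values, 0% of 18570). At an unadjusted p under 0.05 it gave 933 genes on the low side (5.02%) and 931 on the high side (5.01%). Among single genes, GAPDH had a log2 fold change of -4.26 in DMSO and -2.65 in GSI, ATP6V0D1 of -1.56 and -2.50, and SNRNP25 of -1.90 and -2.53. Their direct differences, GSI against DMSO, were 1.05, -0.50 and -0.40, and none of them passed.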

How the data were processed

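Guide abundance was compared between 3 GSI libraries and 2 T0 libraries, with 3 DMSO libraries beside them. Per the methods, reads were trimmed (bcl2fastq 2.19), quality-checked (FastQC 0.11.5) and assigned to sgRNAs of the combined library by MAGeCK 0.5.9.2. The table deposited by the authors holds raw counts per sgRNA, and a second table, the same counts times 1 constant per library, was not used here. Testing took guides whose mean raw count over the 8 libraries reached 10 and was done with edgeR 4.0.16 (R 4.3.3, median-ratio size factors). Genes with at least 4 tested guides were tested by robust rank aggregation of one-sided guide p-values (alpha 0.25) with an exact null, written anew and tested on simulated data, and p-values were adjusted by Benjamini-Hochberg over all genes. MicroRNAs were tested apart and controls were left out. Gene positions are from GENCODE for GRCh38, by symbol or RefSeq synonym.

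The 40 gene lists, their roles and the comparison were chosen with earlier results of these data known. The genes named are the 12 with the lowest p on each side, up to 4 per list with the lowest p, and 9 fixed genes (6 γ-secretase genes, NOTCH1, RBPJ and SOX2), and others, such as those called on gene sums, lost guides and chromosome examples, were chosen after their values were seen. List levels are medians over guides of log2 (normalized count + 1). Depth was 12052218 to 18212884 counts a library. Reads carry no molecular identifiers, and precision from depth covers counting error only. Alternatives were TMM, library totals, control-guide scaling, other count filters, DESeq2 1.42.0, a joint fit, a replicate block, gene sums and leaving out each library. Some genes that the naming rule takes are not reported here.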

Additional observations from a re-analysis of the deposited data

How the results depend on the processing

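The number of guides called was 0 with TMM, control-guide scaling, no filter, a mean of at least 50, the joint fit and the replicate block, 1 with library totals, 5 with at least 10 counts in each T0 library and 7898 with DESeq2. Without 1 library it ranged from 0 to 21033, the highest without T0 replicate 1 and 5497 without T0 replicate 2, where a lone T0 library was taken to vary like the GSI libraries. Genes called on the low side numbered 10 with library totals, 1 with a mean of at least 50, 7 with the T0 minimum, 2 with DESeq2 and 19 on gene sums, and 0 to 1 without 1 library (BARD1, without GSI replicate 1). ATP6V0D1, BARD1 and SNRNP25 were called with library totals, with the T0 minimum and on gene sums. On the high side 1 gene was called in the joint fit (VAX1), 1 on gene sums (AMELY), and 0 without any 1 library.

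T0 and GSI share the numbers 1 and 2, but T0 was taken before the cultures were split, so the numbers were not used as pairs. Deviations of same-numbered libraries from their group means correlated at 0.025 and -0.012. With only 2 T0 libraries, their deviations are equal and opposite, so these values are not separate checks of the numbers. The replicate block called 0 guides, 0 genes lower and 0 higher.

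Relative to all genes, 22 of 40 lists had a median under -0.3, and 16 to 25 did so under the 14 alternatives. Of the 22, the median kept its sign in 20 under all 14, and the exceptions were the proteasome (0.17 with a mean of at least 50) and the APC/C list (0.029 without T0 replicate 1). The cause was not tested. With at least 10 counts in each T0 library, the large ribosomal subunit had 20 of 35 genes at an unadjusted p under 0.05, and olfactory receptors had 2 of 324. That count per list was added after seeing the data. Of 197 genes taken by the naming rule or called on gene sums, 147 kept the sign of their fold change under all alternatives. Of the tested guides, 23% had under 10 counts in at least 1 T0 library, where counting error is wide.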

Other observations

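Guides against microRNA genes, which direct the cut to small RNA loci, were tested apart from protein-coding genes. Of 1349 microRNAs, 73 reached an unadjusted p under 0.05 on the low side and 68 on the high side, and 1, hsa-mir-3937, passed on the high side (rank aggregation on edgeR p-values, adjusted p 0.046). Its 4 guides had a mean normalized count of 8.58 and 0.44 in the T0 libraries, of 94.2, 83.1 and 67.4 in GSI and of 99.8, 61.0 and 51.0 in DMSO. Both kinds of culture are set against the same T0 libraries, and the call rests on guides that were almost unseen in T0 replicate 2. The count filter took the mean over all 8 libraries, so guides low at T0 could pass it through their day 14 counts. No conclusion on this microRNA is drawn from the call. The median over all microRNAs was 0.05.

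In GSI replicate 1, besides the VPS33B guide, an HNF4A guide took 5.97% of the counts and an RBM44 guide 0.319%. No other guide took more than 0.0263% of that library. In GSI replicates 2 and 3 the VPS33B guide took 0.517% and 0.176%, and the HNF4A guide 0.0768% and 0.0274%. The remaining guides with the highest shares there, against SPANXA1, USP17L11, GAGE1 and IGFN1, took between 0.0182% and 0.0205%, and GAGE1, SPANXA1 and USP17L11 belong to gene families with near-identical copies.

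LOC440243 and LOC100132247, which could not be placed by symbol, passed on gene sums (log2 fold change -2.05 and -1.28, edgeR, adjusted p 0.015 and 0.045). They had 199 and 254, and 375 and 404, counts at T0, and 52.1, 60.5 and 49.4, and 190, 142 and 145, in GSI. SPATA5, a ribosome maturation ATPase (-1.997), and RPP38, a subunit of RNase P (-2.18), passed as well (edgeR, adjusted p 0.015 and 0.031).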
